A study of Mus musculus with 8 samples.

Results

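The genes described here encode the mouse proteasome: the 20S core particle, the 19S regulatory particle, their assembly chaperones, the alternative activators and the interferon-inducible immunosubunits. They were selected by annotated symbol as every probe set with a single gene symbol that begins with Psma to Psmg followed by a digit, or that equals Adrm1. The rule matched 85 probe sets of 48 genes, of 12393 genes with a single-symbol probe set in the deposited table. Among the 48 were Psmc3ip, which encodes a meiotic recombination factor, and Psme3ip1, which encodes a protein that binds an activator. Neither is a proteasome subunit, so they are given apart and the counts below refer to the other 46 genes and their 83 probe sets. Adrm1 (a ubiquitin receptor) and Psme2 (an activator subunit) had no probe set under their symbol alone in the annotation used, and no value is given for them.

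The study profiled C2C12 myotubes, which form by fusion of a mouse myoblast line, on 1-colour Affymetrix arrays, 1 array per sample. Starved myotubes (4 arrays, E to H) received no fresh medium for 4 days from day 4 of differentiation, and control myotubes (4 arrays, A to D) had their medium renewed every 48 h over the same period. All were kept in medium with 2% horse serum and harvested at day 8, and the labels place the work under skeletal muscle atrophy. The starved cultures lacked both fresh nutrients and fresh serum and sat in conditioned medium, which the design does not separate, and all arrays come from a single cell line.

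The 20S core is a barrel of alpha and beta rings in which Psmb5, Psmb6 and Psmb7 carry the proteolytic sites. The 19S particle binds polyubiquitinated proteins, removes the ubiquitin through its lid, and unfolds and feeds the substrate through the ATPase ring of its base. In wasting muscle the ubiquitin-proteasome route is known as a main path of myofibrillar protein breakdown, and subunit mRNAs are known to rise in several atrophy models. The transcription factor Nfe2l1 (NRF1) is known to raise subunit genes together when proteasome activity falls short.

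Most proteasome mRNAs measured close to their control level in starved myotubes. Of 43 proteasome genes bright enough to be tested, 0 were called higher and 3 were called lower in starved myotubes: the catalytic subunit Psmb7, the nuclear activator Psme4 (PA200) and the assembly chaperone Psmd10 (gankyrin). A call means an adjusted p under 0.05 in limma's linear model, with Benjamini-Hochberg adjustment over all 13575 probe sets tested. By this rule 4.25% of all 8352 tested genes were higher and 6.94% were lower, so the 3 lower genes (6.98% of the members) are a share near that of all genes. At an unadjusted p under 0.05, 2 members were higher (Psmd9 and Psmg4) and 5 were lower (Psmb3, Psmb7, Psmd10, Psme4 and Psmf1), where 11.1% and 13.2% of all genes were. The median log2 fold change was -0.05 over the members and 0.01 over all tested genes. Of the 43 members 31 lay below 0, where 3985 of all 8352 tested genes did, and this difference in shares was not tested. The arrays of the groups did not overlap for 5 lower members (Psma4, Psmb7, Psmd10, Psme4 and Psmf1) and 1 higher member (Psmd9), where 10.2% and 8.23% of all tested genes were apart in these directions. Whether the 4 samples of a group came from different dishes is not in the labels. The p-values therefore rest on sample-to-sample spread that may be no more than technical. In unscaled values 8 members were called lower and 0 higher. All tested genes then split into 45 higher and 1027 lower, against 355 and 580 after quantile normalization, and their median stood at -0.34.

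**Figure D1:**
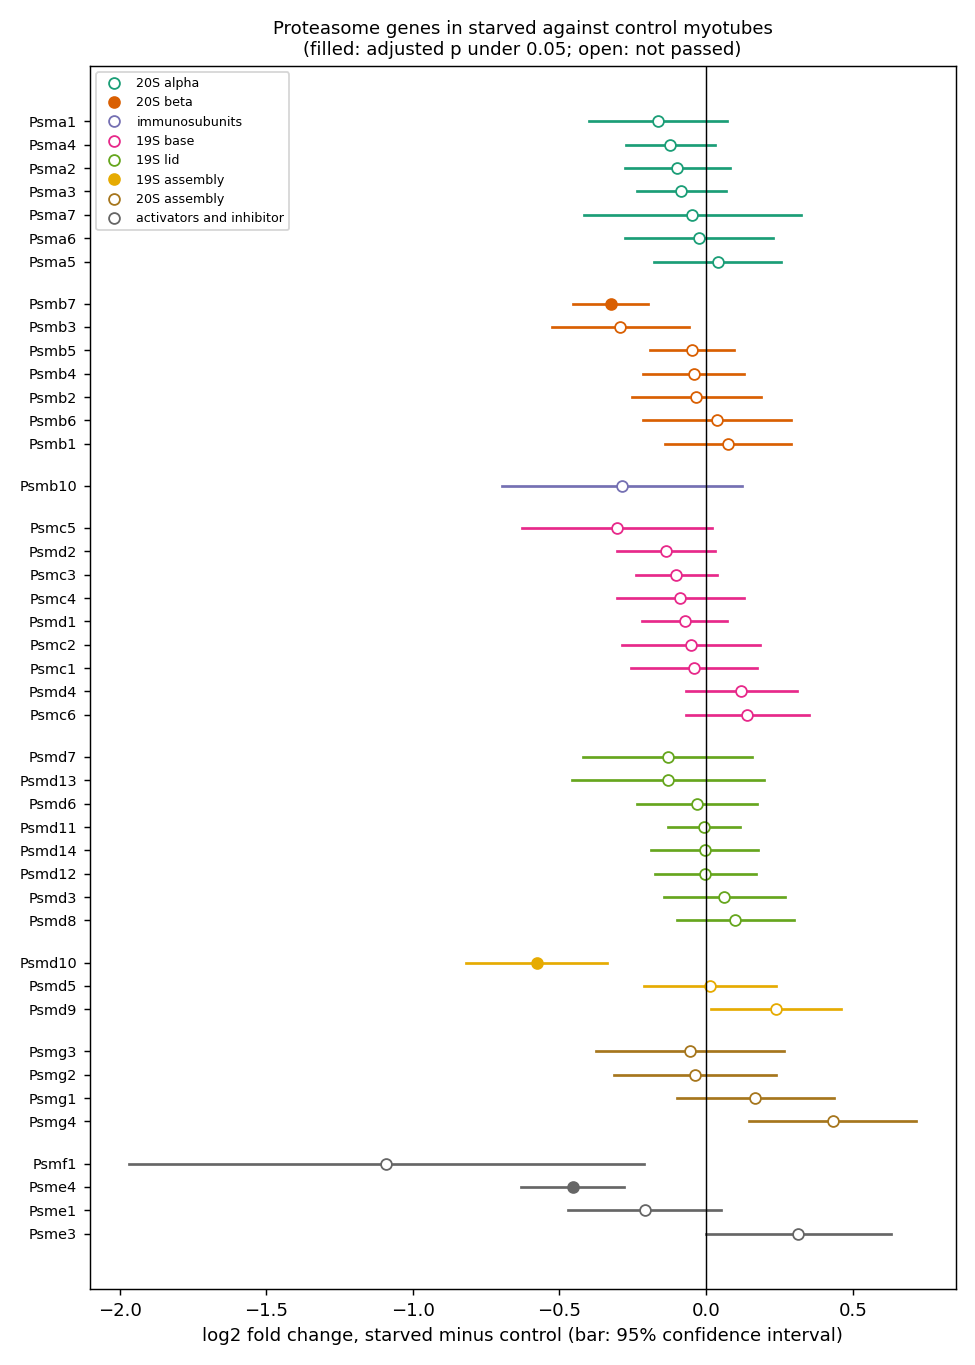
Log2 fold change (starved minus control, x axis) of each of the 43 tested proteasome genes, with its 95% confidence interval from limma, n = 4 arrays per group, grouped by subcomplex. The intervals of most 20S and 19S subunits straddle 0 within a narrow band, and filled points mark the 3 called genes Psmb7, Psmd10 and Psme4.

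Promoter windows were searched for letters that match the antioxidant response element core bound by NRF factors (TGACNNNGC), the CCAAT box (CCAAT) and the C/EBP-ATF element core bound by ATF4 (TGATGNAA), on both strands. RefSeq windows from 250 bases before to 50 bases after the gene start (GRCm38.p6) were matched by symbol for 38 of the 46 genes, 40 windows in all. The antioxidant core was in 6 of the 40 (15%), against 12.4% of all 32851 windows. CCAAT was in 13 (32.5%, against 37.4%) and the ATF4 core in 1 (2.5%, against 3.97%). A match is a description of letters and not a bound site. The windows of the called genes Psme4 and Psmd10 are shown, with every matched motif in capitals, and no window was listed for the other called gene, Psmb7. Psme4 has 1 antioxidant core, read on the opposite strand, and Psmd10 has 3 CCAAT boxes, so the 2 windows share no motif searched.
Psme4, GRCm38.p6, chr11:30771525-30771824, plus strand: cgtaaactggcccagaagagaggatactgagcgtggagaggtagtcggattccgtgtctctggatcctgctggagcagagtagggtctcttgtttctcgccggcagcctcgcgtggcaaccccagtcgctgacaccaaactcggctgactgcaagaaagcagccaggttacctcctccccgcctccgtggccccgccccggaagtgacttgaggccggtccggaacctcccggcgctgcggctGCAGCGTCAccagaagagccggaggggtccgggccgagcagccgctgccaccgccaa
Psmd10, GRCm38.p6, chrX:140956662-140956961, minus strand: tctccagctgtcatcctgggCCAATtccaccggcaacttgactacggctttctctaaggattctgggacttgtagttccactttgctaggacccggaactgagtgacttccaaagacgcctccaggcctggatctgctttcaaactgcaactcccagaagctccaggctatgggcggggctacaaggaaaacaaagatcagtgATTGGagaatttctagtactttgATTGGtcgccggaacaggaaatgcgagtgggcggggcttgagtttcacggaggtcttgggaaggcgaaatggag

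The intervals give the precision of these values within the fit, after quantile normalization. Like the p-values, they rest on sample-to-sample spread that may be no more than technical. The 95% confidence interval of the fold change lay inside 1.5-fold in either direction for 36 of the 43 members (83.7%), against 63.0% of all tested genes. The 7 others were Psmb10, Psmc5, Psmd10, Psme3, Psme4, Psmf1 and Psmg4. The median size of the log2 fold change, whatever its sign, was 0.10 over the members and 0.17 over all genes. The median standard error was also smaller, 0.099 against 0.139, and its part in the narrower intervals was not tested. In the constitutive 20S and 19S subunits the interval stayed inside 1.5-fold for 30 of 31 genes, with Psmc5 as the exception.

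**Figure D2:**
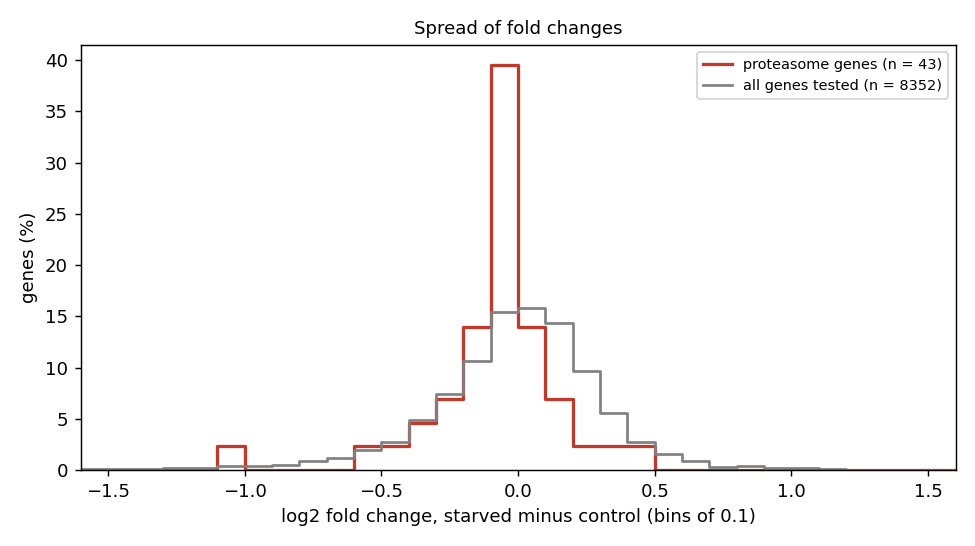
Share of genes (y axis, %) by log2 fold change (x axis, starved minus control, bins of 0.1), for the 43 tested proteasome genes and all 8352 tested genes. The members crowd next to 0, with Psmf1 at -1.09 alone at the far left.

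In the outer rings of the 20S core, which gate substrate entry, 0 of 7 tested alpha subunits were called. Their log2 fold changes ran from -0.16 (Psma1) to 0.04 (Psma5), with a median of -0.08. A second probe set of Psma5, nearly as bright, stood at -0.24 (adjusted p = 0.167), so the sign for that gene depends on the probe set. Without starved H Psma1 was at -0.26 (adjusted p = 0.0986). Psma4 was the alpha subunit whose groups were apart, at 10.80, 10.82, 10.80 and 10.69 log2 units in starved arrays E to H, against 10.90, 10.94, 10.94 and 10.82 in controls A to D. That difference of -0.12 ± 0.07 (SE) did not pass (adjusted p = 0.314 by limma). Psma8, an alpha subunit known from testis, was too dim to be tested.

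Among the beta subunits of the inner rings 1 of 7 was called, Psmb7. Its product cuts after basic residues. Psmb7 stood at 12.30, 12.42, 12.35 and 12.28 log2 units in starved arrays E to H, against 12.74, 12.71, 12.58 and 12.61 in controls A to D. Every starved array was below every control, and the spread within a group was small (SD 0.064 in starved and 0.075 in control). Psmb7 fell by 0.32 ± 0.06 on the log2 scale, to 0.798 of the control level (95% interval of the log2 change -0.45 to -0.20, adjusted p = 0.00424 by limma). The call of Psmb7 was lost with median centring (-0.28, adjusted p = 0.175), with 75th percentile centring (-0.24, adjusted p = 0.208) and without an intensity trend in the variance (adjusted p = 0.0526).

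The other proteolytic subunits did not pass the test. Psmb5, which cuts after hydrophobic residues, was at 11.76, 11.88, 11.84 and 11.81 in starved arrays and at 11.82, 11.77, 11.99 and 11.89 in controls (-0.05 ± 0.07, adjusted p = 0.722). Psmb6, which cuts after acidic residues, was at 0.04 ± 0.11 (adjusted p = 0.88). The groups overlapped for both genes. Whether Psmb7 differed from Psmb5 and Psmb6 in its change was not tested. The remaining beta subunits, which are structural, ran from -0.29 (Psmb3, adjusted p = 0.115) to 0.08 (Psmb1). Psmb3 was lower in a second probe set as well (-0.16, adjusted p = 0.301). A dimmer probe set of Psmb4 stood at -0.31 (adjusted p = 0.208), where its brightest one was at -0.04.

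**Figure D3:**
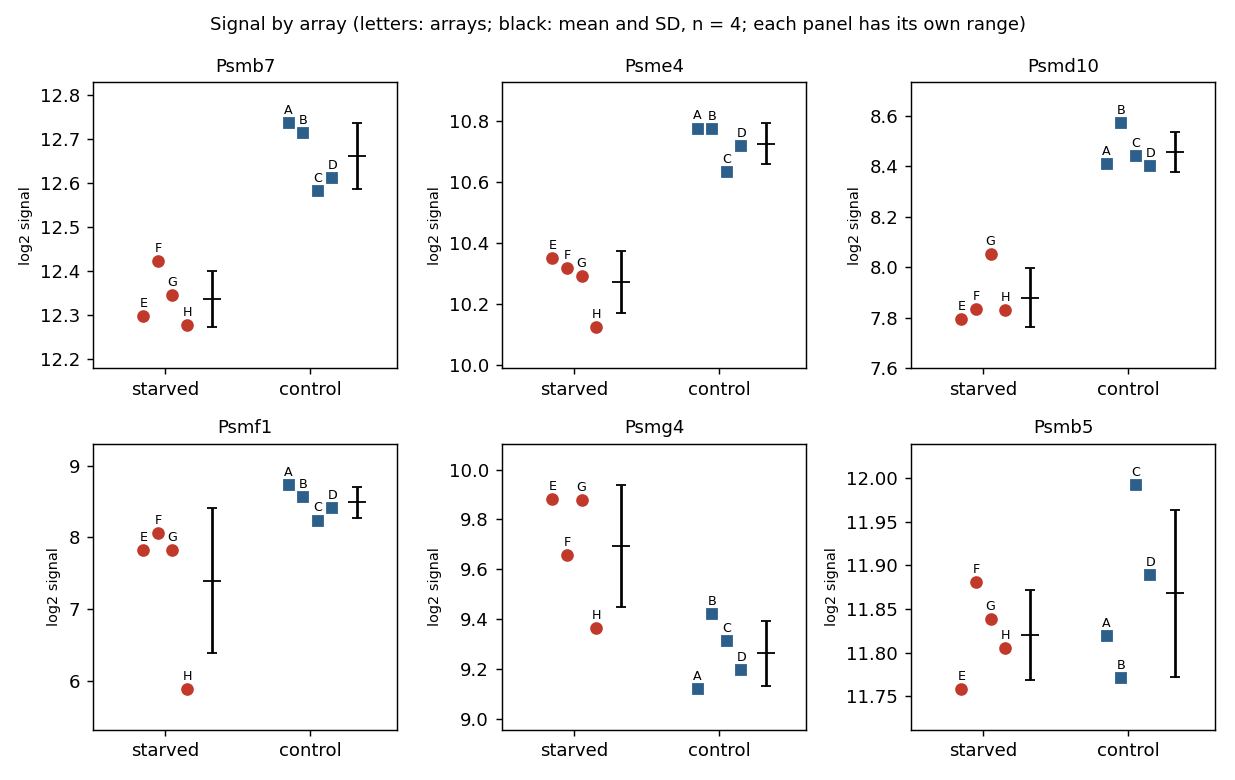
Log2 signal after quantile normalization (y axis, separate range per panel) on each starved array (E to H) and control array (A to D) for 6 genes, with mean and SD, n = 4. Psmb7, Psme4 and Psmd10 are lower on every starved array, Psmf1 has starved H far below the rest, and the groups overlap for Psmg4 and Psmb5.

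The immunosubunits replace the proteolytic subunits of the core when cells meet interferon, and favour peptides for antigen presentation. Only Psmb10 was bright enough to be tested. Psmb10 was at 7.41, 7.61, 8.16 and 7.53 log2 units in starved arrays and 7.79, 8.33, 7.89 and 7.85 in controls, with overlapping groups (-0.29 ± 0.19, adjusted p = 0.389). Its value ran from -0.45 without starved G to -0.17 without control B. Psmb8 and Psmb9 lay below the brightness limit for testing (log2 6.61 as a mean of the 8 arrays). Psmb8 ran from 4.29 to 5.43 in starved and from 4.62 to 5.57 in control arrays. Psmb9 had 7.04, 6.36, 5.82 and 5.17 in starved arrays E to H, against 6.07, 5.48, 4.69 and 5.06 in controls A to D, so the groups overlapped and both varied widely.

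The ratio of each immunosubunit to the subunit it replaces was compared within arrays, for 3 pairs, with two-sided exact permutation tests over 70 labellings (smallest possible p 0.0286). Psmb8 minus Psmb5 differed by -0.02 between starved and control (p = 0.943, adjusted over the pairs 0.943, exact). Psmb9 minus Psmb6 differed by 0.73 (exact p = 0.286, adjusted 0.857), and starved arrays E and F were above all controls, F by a narrow margin, while G and H lay among them. Psmb10 minus Psmb7 differed by 0.04 (exact p = 0.771, adjusted 0.943). None of the 3 ratios passed. With adjustment over 3 pairs, a single ratio could not have passed at 0.05 on its own, even at the smallest possible p. Since Psmb8 and Psmb9 were too dim to be tested on their own, the ratios that use them say little on whether these subunits changed. Interferon and antigen presentation genes were set beside them, where 4.25% of all tested genes were called higher and 6.94% lower. Of these 15 genes 9 were bright enough to test, 0 were called higher and 1 was called lower. That gene was Tapbp (tapasin, which loads peptides onto class I molecules), at 9.05, 8.82, 8.80 and 8.68 in starved arrays and 9.62, 9.54, 9.62 and 9.52 in controls, a fall of 0.74 ± 0.10 (adjusted p = 0.000766 by limma). With the mean of its probe sets Tapbp was at -0.42 (adjusted p = 0.122). At an unadjusted p under 0.05, 1 gene of this list was higher (Tap2) and 2 were lower (Tapbp and Irf1). Among all tested genes 11.1% were higher and 13.2% lower by that rule. Lymphocyte and macrophage markers were also read, although all arrays come from the single C2C12 line. They had 0 of 3 tested genes called, and Ptprc, Itgam and Cd3e were too dim to test. By limma Csf1r was at -0.07 (adjusted p = 0.855), Cd68 at 0.33 (adjusted p = 0.257) and Adgre1 at 0.32 (adjusted p = 0.262). Adgre1 was higher on every starved array. The log2 of the summed signal of all 6 markers ran from 9.42 to 9.92 in starved and from 9.39 to 9.66 in control arrays.

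In the 19S base, the ATPases and their scaffold, 0 of 9 tested genes were called. Their log2 fold changes ran from -0.31 (Psmc5) to 0.14 (Psmc6), with a median of -0.07. A dimmer tested probe set of Psmc6 stood at -0.07 (adjusted p = 0.827 by limma). Psmc5, an ATPase of the ring, was at 10.51, 10.84, 11.36 and 10.98 in starved arrays E to H, against 11.20, 11.12, 11.28 and 11.30 in controls A to D. Starved E was lowest and starved G was above every control, so the groups overlapped and the difference did not pass (-0.31 ± 0.15, adjusted p = 0.24). Without starved G it was called lower (-0.45, adjusted p = 0.0335), and without starved E it stood at -0.17 (adjusted p = 0.472).

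The 19S lid holds the deubiquitinase Psmd14. None of its 8 genes was called by limma, 0 had an unadjusted p under 0.05, and the values ran from -0.13 (Psmd7) to 0.10 (Psmd8) around a median of -0.01. A dimmer probe set of Psmd6, a structural lid subunit, was lower with the groups apart but did not pass (-0.42, adjusted p = 0.188), where its brightest one was at -0.03. Psmd14 itself was at 10.73, 10.79, 10.71 and 10.67 in starved arrays and 10.64, 10.88, 10.81 and 10.59 in controls. Psmd11, whose product strengthens assembly of the whole particle, was at -0.01 ± 0.06 in its brightest probe set.

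Of the 3 chaperones of the 19S base 1 was called, Psmd10. Psmd10, which holds an ATPase during base assembly and then leaves, was at 7.80, 7.83, 8.05 and 7.83 log2 units in starved arrays E to H, against 8.41, 8.57, 8.44 and 8.40 in controls A to D. The groups were apart, and Psmd10 fell by 0.58 ± 0.11 on the log2 scale to 0.67 of the control level (95% interval -0.82 to -0.34, adjusted p = 0.00612 by limma). Its call held in each of the 19 alternatives run, with log2 fold changes from -0.93 to -0.53. Of the other base chaperones, Psmd9 was higher on every starved array (8.99, 8.92, 9.11 and 8.78, against 8.68, 8.72, 8.77 and 8.68 in controls), but its difference of 0.24 ± 0.10 did not pass (adjusted p = 0.179). Psmd9 stood at -0.13 in unscaled values, where the median of all tested genes was -0.34. With median and 75th percentile centring it was at 0.19 and 0.23, without passing. Psmd5 was at 0.01 ± 0.10.

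Of the 20S assembly chaperones 0 of 4 were called by limma, and 1 had an unadjusted p under 0.05. That gene, Psmg4, was at 9.88, 9.66, 9.88 and 9.36 in starved arrays, against 9.12, 9.42, 9.31 and 9.20 in controls. Starved H lay below control B, and the others were above all controls. The difference of 0.43 ± 0.13 just missed the threshold (adjusted p = 0.0587). It passed as higher without starved H (0.55, adjusted p = 0.0117), without control B (0.48, adjusted p = 0.0444), with array weights, with the mean of probe sets and when only probe sets above the 60th percentile were tested. In unscaled values it stood at 0.04, where the median of all tested genes was -0.34. With median and 75th percentile centring Psmg4 was at 0.36 and 0.40, without passing. The partner genes Psmg1 (0.17), Psmg2 (-0.04) and Psmg3 (-0.05) did not pass. A second probe set of Psmg2 stood at 0.49 (adjusted p = 0.142).

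In the alternative activators and the inhibitor the median size of the log2 change was 0.38, the largest of the subgroups with more than 1 tested gene. Psme4 encodes a large nuclear cap that opens the 20S core without ATP. Its brightest probe set was at 10.35, 10.32, 10.29 and 10.12 log2 units in starved arrays E to H, against 10.78, 10.78, 10.63 and 10.72 in controls A to D. All starved arrays were below all controls, and Psme4 fell by 0.45 ± 0.08 to 0.73 of the control level (95% interval -0.63 to -0.28, adjusted p = 0.00369 by limma). A second probe set was also called lower (-0.34, adjusted p = 0.0379) and the third pointed the same way without passing (-0.36, adjusted p = 0.173). The call held in each of the 19 alternatives, with values from -0.84 to -0.39. At the level of probe sets 4 of 67 tested member probe sets were called lower (5.97%), 2 of them of Psme4, against 6.23% of all tested probe sets.

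Psmf1 encodes PI31, a 20S inhibitor and transport adaptor. Its brightest probe set was at 7.82, 8.05, 7.82 and 5.88 in starved arrays E to H, against 8.74, 8.56, 8.23 and 8.41 in controls A to D. Starved H was far below the other arrays, and its deposited intensity was 47.9 where starved E to G had 156 to 215 and controls 296 to 580. The difference of -1.09 ± 0.40 did not pass with that array (adjusted p = 0.119). Without starved H it was smaller, at -0.59, and was called lower (adjusted p = 0.0319). The other tested probe sets of Psmf1 disagreed, at 0.20 (adjusted p = 0.489) and -0.36 (adjusted p = 0.279), and the fourth was too dim. Psme1, a subunit of the interferon-inducible activator, was at -0.21 ± 0.12 (adjusted p = 0.319). Psme3, the nuclear homologue, was at 8.20, 8.59, 8.48 and 8.91 in starved arrays, against 8.23, 8.26, 8.20 and 8.23 in controls (0.31 ± 0.14, adjusted p = 0.213). A dimmer tested probe set of Psme3 stood at 0.09 (adjusted p = 0.752 by limma), and the mean of probe sets gave 0.20. The brightest one stood at 0.19 without starved H and at -0.05 in unscaled values, where the median of all tested genes was -0.34. With median and 75th percentile centring Psme3 was at 0.27 and 0.31, without passing.

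**Figure D4:**
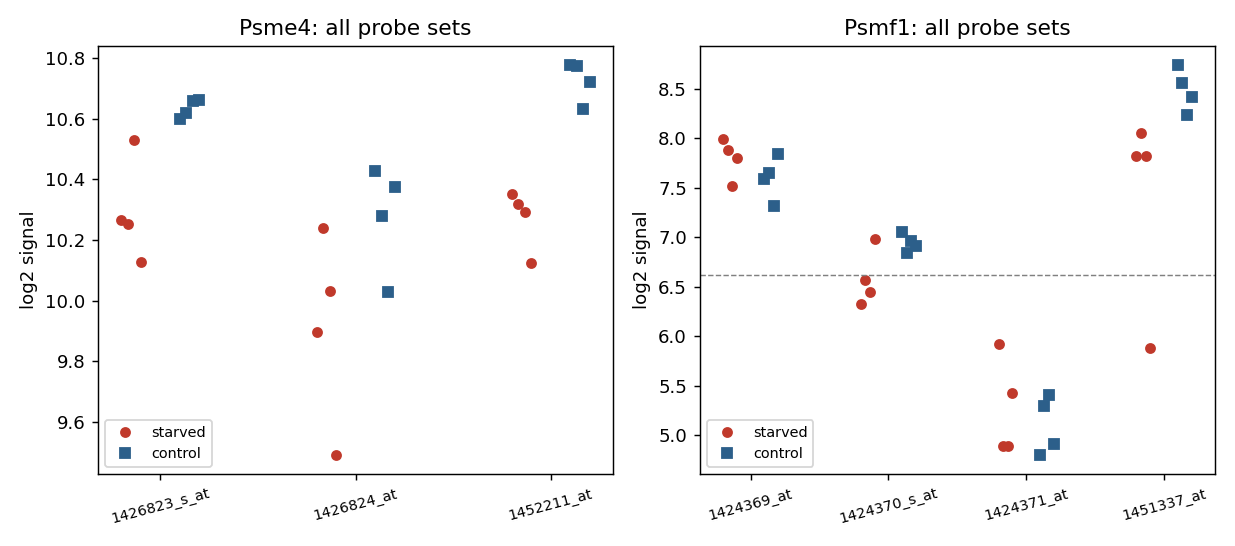
Log2 signal (y axis) on each starved and control array for every probe set (x axis) of Psme4 and Psmf1. The dashed line is the brightness limit of log2 6.61, which applies to the mean of the 8 arrays. The 3 Psme4 probe sets all have lower starved means, whereas those of Psmf1 point in different directions and starved H is an outlying point on the brightest of them.

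Several members were measured by more than 1 probe set. Of 18 genes with at least 2 tested probe sets, 10 had all of them on the same side of 0. The 2 matched genes that are not subunits, Psmc3ip (0.36 ± 0.23, adjusted p = 0.391) and Psme3ip1 (0.21 ± 0.10, adjusted p = 0.247), did not pass.

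Across arrays, the mean log2 deviation of the 43 members from each gene's own mean was -0.005, -0.051, 0.025 and -0.12 in starved arrays E to H, against 0.0097, 0.12, 0.035 and -0.010 in controls A to D. Starved H was lowest and control B highest. On the Gapdh control probe sets the 3' signal of control B exceeded the 5' signal by 1.40 log2 units, where starved arrays had -0.23 to -0.04 and the other controls -0.22 to -0.12. The actin control probe sets did not set control B as far apart, at 0.32, where starved arrays had 0.02 to 0.27 and the other controls 0.08 to 0.29. The part of control B in the results was not tested beyond leaving it out: without control B 1 member was called higher (Psmg4) and 3 were called lower, the same genes as with it. The median of the members was then -0.02, against 0.03 over all genes. All 10 myotube markers were bright (percentiles 92.9 to 99.97 of all probe sets). Actn2 was called higher (0.58) and Des lower (-0.22), where 4.25% and 6.94% of all tested genes were. At an unadjusted p under 0.05 by limma, 4 of the 10 were lower (Ckm, Myh3, Des and Mb) and 1 was higher (Actn2). Of all tested genes 13.2% were lower and 11.1% higher by that rule. Of 4 markers of undifferentiated myoblasts, Myf5 was too dim to test, and Pax7, Ccnd1 and Mki67 were tested with 0 called by limma and 0 at an unadjusted p under 0.05. Ccnd1 was higher on every starved array without passing (0.20 ± 0.10, adjusted p = 0.258). The part of these markers in the results was not tested. In bulk RNA a smaller share of cells with a transcript and less of it per cell cannot be told apart.

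**Figure D5:**
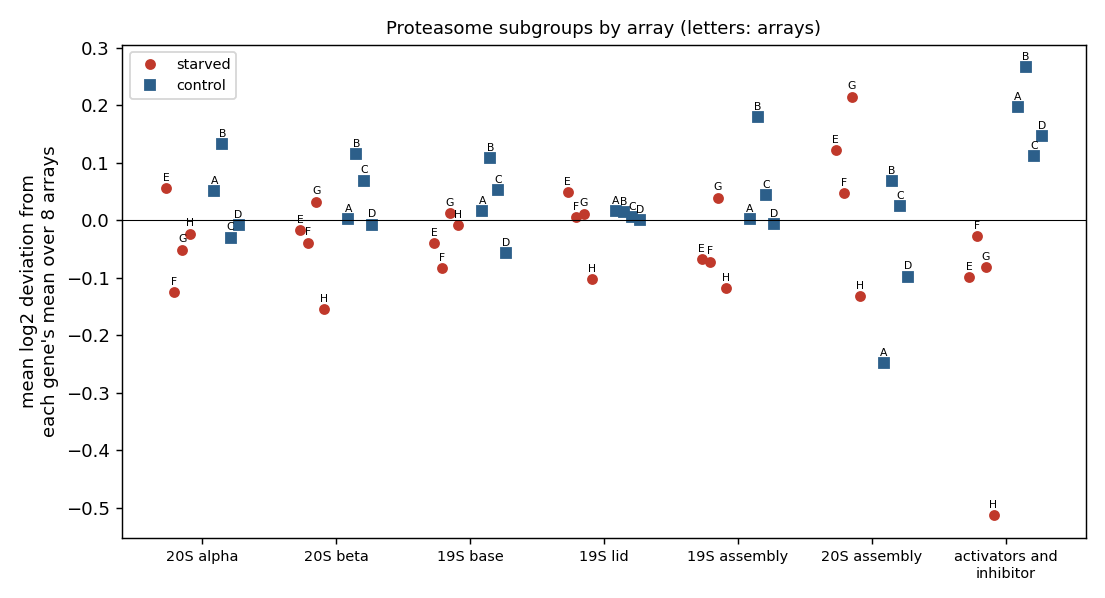
Mean log2 deviation of each subgroup's tested genes from their own means over the 8 arrays (y axis), by subgroup (x axis), for starved arrays E to H and control arrays A to D. Groups overlap in the 20S and 19S subgroups, and control B is high in several of them. In the activators and inhibitor every starved array is below every control. Starved H is lowest there, at -0.51. Of the 4 genes, Psme3 was above 0 (0.31). Psmf1 enters with its brightest probe set (-1.09), while its other tested probe sets stood at 0.20 and -0.36. The separation was not recomputed without Psmf1.

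Genes that work with the proteasome were set beside the members, where 4.25% of all tested genes were called higher and 6.94% lower. At an unadjusted p under 0.05 by limma, 11.1% of all tested genes were higher and 13.2% lower. Of 13 proteasome-associated genes (ubiquitin shuttles, deubiquitinases and assembly or storage factors) 1 was called higher and 0 lower, with 1 and 2 at an unadjusted p under 0.05. The called gene was Zfand5, whose product is known in mouse to bind the 26S proteasome, stimulate it and take part in muscle wasting. Zfand5 was at 10.47, 10.56, 10.48 and 10.80 in starved arrays, against 10.21, 10.05, 10.20 and 10.16 in controls, and rose by 0.42 ± 0.09 (adjusted p = 0.0125 by limma). Every starved array was above every control. The call of Zfand5 held in 18 of 19 alternatives. It was lost in unscaled values (0.03, adjusted p = 0.937), where the median of all tested genes was -0.34. Sem1, a small lid subunit whose symbol falls outside the selection rule, was at -0.20 ± 0.09 (adjusted p = 0.195). Pomp, which matures the 20S core, was lower on every starved array without passing (-0.24 ± 0.08, adjusted p = 0.0665).

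Of 8 genes that encode NRF factors or process NRF1, 1 was called higher and 0 lower, with 2 and 1 at an unadjusted p under 0.05. Syvn1 was higher on every starved array without passing (0.43 ± 0.16, adjusted p = 0.131 by limma), with control B lowest at 9.29. Ufd1 was lower without passing (-0.28 ± 0.13, adjusted p = 0.209). Nfe2l1 was at 12.03, 12.06, 12.12 and 11.85 in starved arrays, against 11.64, 11.28, 11.58 and 11.87 in controls, so that starved H lay just below control D. Nfe2l1 rose by 0.42 ± 0.11 (adjusted p = 0.0345 by limma), a call that held in 9 of 19 alternatives and was lost in each other scaling (0.08, 0.40 and 0.44, adjusted p from 0.0573 to 0.767). Nfe2l2 was at -0.02 ± 0.08. Ubiquitin genes and ubiquitin-activating enzymes were not analysed here.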

How the data were processed

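RNA of 4 starved and 4 control C2C12 myotube samples was measured on 1-colour arrays. The authors deposited 1 intensity per probe set and array on a linear scale; the software that made it and the genome build are named by none of the sources used here. Trimmed means differed by up to 1.87 times between arrays. An offset of 10.9 (the 10th percentile) was added, and log2 values were quantile normalized. After removal of 64 control probe sets, the 13575 brighter than the 40th percentile (mean of 8 arrays) were tested with limma 3.58.1 in R 4.3.3 (lmFit, eBayes with trend; adjusted p threshold 0.05). Because of the offset, log2 fold changes of dim genes are understated. Symbols came from the platform annotation (20380 probe sets with 1 symbol, 691 with several, 1555 with none), matched by gene number to RefSeq for 20351, which replaced 0 symbols. A gene is its brightest tested probe set.

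Named genes are called members, proteolytic and immunosubunits, activators, the extremes of each subgroup, dim members and called genes of related lists. Psma4, Psmb3, Psmd5, Psmd11, Psmd14, Psmg1, Psmg2, Psmd6, Sem1, Pomp, Nfe2l2, Tap2, Irf1 and other genes listed by a count were added after their values were seen. So were Psmb4, Csf1r, Cd68, Adgre1, Syvn1 and Ufd1. Members and lists were chosen with earlier results of these data known. The fit was tested on simulated data. The number of arrays limits the precision. Figures used matplotlib 3.10.9.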

Additional observations from a re-analysis of the deposited data

Results flagged for a closer look

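Of 86 groups of 4 arrays (43 genes in each group) 7 had an array far from the other 3, by Dixon's test at the 95% level, where chance flags about 1 in 20. Of these, 3 were in starved H: Psmf1 at 5.88 log2 units (nearest array 7.82), Psma1 at 9.39 (nearest 9.04) and Psma4 at 10.69 (nearest 10.80). Control B stood apart for Psmd5, at 9.59 (nearest 9.26), and for Psmd8, at 10.89 (nearest 11.22). Starved G was high for Psmd10, at 8.05 (nearest 7.83), but still below all controls. Control A was low for Psmg1, at 8.44 (nearest 8.82).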

How the results depend on the processing

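The counts of called members and the values of 22 named genes were recomputed under 19 alternatives: 3 scalings, 2 offsets, 2 filters, 2 variance settings, array weights, the mean of probe sets, and leaving out each of the 8 arrays. Psmb7 was called lower in 16 of them, and Psmd10 and Psme4 in all 19. Members called lower numbered 8 in unscaled values, where the added genes were Psmb3, Psmc3, Psmc5, Psmd2 and Psmf1 and the median of all genes was -0.34. There all tested genes split into 45 higher and 1027 lower, against 355 and 580 after quantile normalization. Relative to that median the members' median was -0.09. Members called higher numbered 1 (Psmg4) with a filter at the 60th percentile, with array weights and with the mean of probe sets. Leaving out 1 array gave 0 to 1 higher and 3 to 4 lower members. No called gene changed sign. In 17 of 418 values of named genes the sign changed without a call in either setting. The counts of intervals, of groups apart and of unadjusted p-values were not recomputed. The 3 immunosubunit ratios did not pass in unscaled values or without any 1 of the 8 arrays, and the other scalings cancel within an array. In these settings too, a single ratio could not have passed on its own after adjustment. Leaving out an array left Psmb9 minus Psmb6 between 0.36 and 1.03. No paired analysis was possible because the array letters of the groups differ.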
